A study of Homo sapiens with 2 samples.

Results

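PAX5 binding in the NALM6 cell line was examined at the 337 sites where most ChIP reads were stacked over a single summit. They were selected on the pileup at the summit: all peaks on chromosomes 1 to 22 and X with a pileup of at least 100, and they make up 1.58% of the 21313 peaks on these chromosomes (21361 peaks in the whole list). The pileup is the number of ChIP reads over the summit after the peak caller scaled the deeper ChIP library to the depth of the control, by a factor of 0.550. A pileup of 100 therefore stands for at least 182 ChIP reads. NALM6 is an established human B-cell precursor leukaemia line, here untreated and grown for 4 days in RPMI without phenol red, with 10% serum and 2 mM glutamine. The series compares 1 sample precipitated with a PAX5 antibody from Abcam with 1 input control that received no antibody. The control carries the name RXL in its title, which the labels do not explain. The ChIP alignment was a pool of 46190180 tags and the control held 25416858. There are no replicates, so all values below describe 1 comparison of ChIP with input, and intervals cover counting error only.

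PAX5 is a transcription factor that binds DNA through its paired domain, which makes contact over a long recognition sequence with considerable tolerance for variation. In the B lineage it activates genes of the B-cell receptor and its signalling chain, represses genes of other blood lineages, and is needed to keep cells committed. In ChIP-seq, fragments bound by the factor pile up around the contact point, so that a peak has a position of highest coverage, its summit, and a width over which coverage exceeds the control. The height of the pile depends on occupancy, on how many cells carry the site and its copy number, and on how well the fragments amplify and map. None of these was separated here. Positions are on hg19. Neither the sequence nor the gene annotation of that build was used here, so no site is assigned to a gene and no sequence is shown.

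The pileup chose the sites, and the fold enrichment, the q-value, the width and the summit position come from the same comparison. These are given as a description without a test. Over the 337 sites the ChIP reads at the summit ranged from 182 to 360, with a median of 207 and quartiles of 192 and 228. Most of the list thus lay close to its lower edge. The peak caller limited the tags kept per position and extended each by a fixed length, so the reads over a summit have an upper limit. It kept 46190179 of the 46190180 ChIP tags, so this step itself removed almost none. Any removal of repeated tags before it was not examined. Under such an upper limit, differences in height among the tallest piles may be understated. The sites held 126 summits with fewer than 200 reads, 170 with at least 200 but fewer than 250, and 41 with 250 or more.

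The edge of the list was not sharp. Exactly at the edge, 7 sites had 182 reads, and 11 peaks with 181 reads fell outside. The members just inside had control backgrounds from 8.0 to 16.0 reads and folds from 5.95 to 11.2, and those just outside had backgrounds from 5.0 to 32.0 and folds from 3.05 to 16.8. 3 of the former were chr19:36390482-36391705, chr6:158185356-158186100 and chr17:70470741-70471351. 3 of the latter were chr12:132936396-132937014, chr22:29759989-29760890 and chr6:107187061-107187579. The exact Poisson 95% interval of 182 reads was 157 to 210, and that of 181 reads was 156 to 209. Of the 337 sites, 153 had an interval that stayed above the threshold and 184 had one that reached it. Another 362 peaks below the threshold had intervals that reached up to it.

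The tallest pile of the genome-wide list on these chromosomes stood at chr8:130180030-130180999, with 360 reads over the summit (exact Poisson 95% interval 324 to 399). The control background there was 24.0 reads, so the fold was 7.96, the lowest among the 10 leading sites. The second, chr10:5881847-5883355, had 348 reads (312 to 387) over 8.55 control reads, a fold of 20.2. The third, chr3:126793532-126794430, had 331 reads over 16.0, a fold of 10.8. The counting intervals of these 3 sites overlapped, since that of the third was 296 to 369.

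Places 4 to 10 fell between 323 and 295 reads. They were chr10:126289736-126290666 with 323 reads and a fold of 17.9, chr2:217534949-217535748 with 318 and 15.2, and chr17:27439492-27440827 with 308 and 15.5. The next was chr13:41019411-41020206 with 301 reads and a fold of 12.8. A pair on chromosome 1 tied at 299 reads, chr1:31227358-31228021 with a fold of 14.3 and chr1:167586402-167587451 with a fold of 11.0. The tenth was chr10:1530675-1531877 with 295 reads and a fold of 14.8. The 10 leading sites lay on 7 chromosomes, 3 of them on chromosome 10.

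Place 20 was shared, so that 22 sites held the first 20 places, on 16 chromosomes. Below the first 10 they had 269 to 287 reads. They included chr16:11006150-11007062 with 287 reads and a fold of 17.0, chr12:51762621-51763327 with 279 reads and a fold of 14.5, and chr5:402864-403512 with 279 reads and a fold of 21.2. chr17:56404826-56410880 followed with 278 reads and was the widest of all 337 sites. The others were chr11:129893038-129893727, chr22:29563118-29564046, chr12:58008262-58008955, chr19:48252127-48253001, chr2:25432865-25433559, chr18:60085342-60086012, chr4:4945386-4946218 and chr9:112888173-112889078, with 269 to 274 reads. All 22 were among the 100 peaks of highest −log10 q, and 13 were among the 100 of highest fold.

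**Figure D1:**
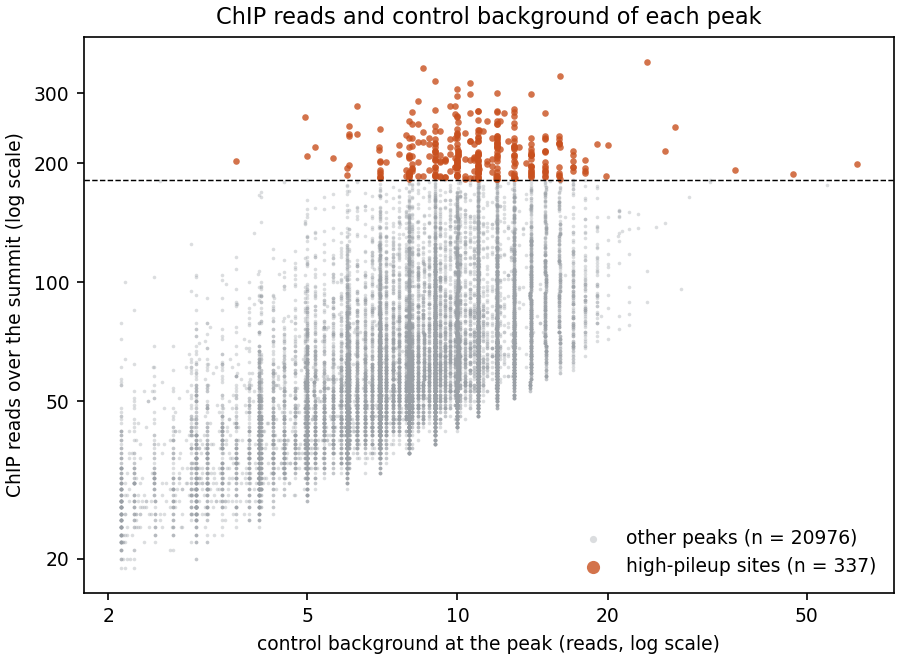
ChIP reads over the summit (vertical axis, log scale) against the control background in reads (horizontal axis, log scale) for each peak on chromosomes 1 to 22 and X. Orange points are the 337 high-pileup sites and grey points the 20976 other peaks, and the dashed line marks a pileup of 100. The orange points fill a band over backgrounds from 3.60 to 63.0 reads, with few at either extreme.

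The control background was higher at the high-pileup sites than at other peaks. It had a median of 11.0 reads at the sites (quartiles 9.0 and 13), against 8.0 at the 20976 other peaks. The background is a local estimate by the caller with the genome mean, 2.12, as its lower limit. Standing above that mean is thus by itself no sign of a raised control. At 235 of the 337 sites it fitted a whole number of reads at the summit window, and at 28 of these also a count over 1000 bp. At 102 (30.3%) it fitted only a count over 1000 bp. The same split is not given here for other peaks, so it does not set the sites apart. No site stood on the genome mean (Wilson upper limit 1.13%), where 185 of the 20976 other peaks did (0.882%). None of the 848 peaks with pileup from 75 to 100 did either, so this does not set the sites apart. The 848 peaks just below, with pileup from 75 to 100, had the same median of 11.0 (95% interval 10.35 to 11.0 for both). The raised background was thus shared with the next class of peaks. Within the sites, whose reads the rule restricts to a narrow range, reads and background had a Spearman's rho of -0.02 (n = 337, all from the same pair of libraries).

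Fold enrichment had a median of 9.98 at the sites (quartiles 8.33 and 11.8), against 3.85 at other peaks. A fold of at least 10 was reached by 163 of 337 sites and by 204 of 20976 other peaks. Among the sites, whose reads span a narrow range, the fold followed the control more closely than the ChIP. Its rho with background was -0.87 and its rho with reads 0.45, over the same 337 points. The 15 sites with a background under 7 reads had folds from 14.8 to 24.4, and the 46 with 15 or more had folds from 1.73 to 10.8. Since the fold divides the pileup by the background and the rule keeps the pileup between 100.15 and 198.1, such a split by background fixes most of this difference in fold.

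The sites of highest fold combined a tall pile with a low control. chr8:1155933-1156956 had 262 reads over 4.95, a fold of 24.4. chr6:68598689-68599560 had 202 reads over 3.60, the lowest background of all sites, and also a fold of 24.4. The third lowest background, 5.00, was at chr2:240513751-240515820, with 208 reads and a fold of 19.2. At the other end, 6 sites had a fold under 5. The lowest was chr17:41399750-41401253, where 199 ChIP reads stood over 63.0 control reads and the fold was 1.73. A pair 3.61 kb apart on chromosome 1 came next. chr1:145000683-145000984 had 188 reads over 47.0, a fold of 2.18, and chr1:145004250-145004715 had 192 reads over 36.0, a fold of 2.88. At these 3 sites the pile was tall in the input too.

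The tallest piles were only in part the most enriched sites. Of the 337 sites, 157 (46.6%) were also among the 337 peaks of highest fold, and 266 (78.9%) among the 337 of highest −log10 q. All 157 were in the list by q too, and 71 sites were in neither. All 3 measures use the same ChIP reads.

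High-pileup sites were wide. Their median width was 782 bp (95% interval 754 to 830, quartiles 653 and 1044), which is 2.06 times the 379 bp of other peaks (377 to 383). A width of at least 1000 bp was reached by 93 of 337 sites (27.6%, Wilson 95% interval 23.1 to 32.6) and by 592 of 20976 other peaks (2.82%). Width rose through the pileup classes without a step at 100. The median was 286 bp under a pileup of 25, 374 bp from 25 to 50, 534.5 bp from 50 to 75 and 654 bp from 75 to 100. The sites were 1.20 times as wide as that last class. Width and pileup are read from the same coverage track, so this relation is no independent property of the sites.

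**Figure D2:**
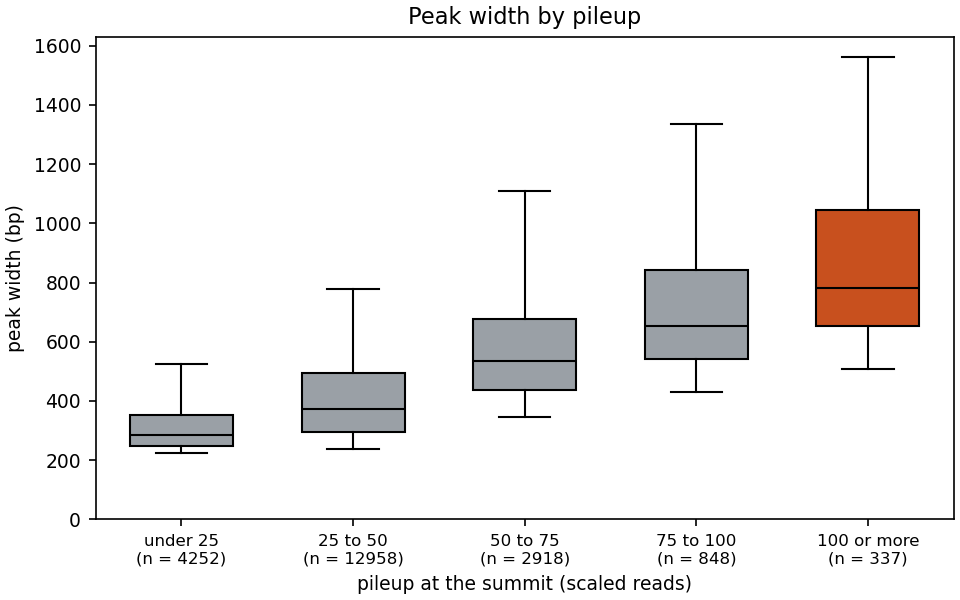
Peak width in bp (vertical axis, from 0) by class of pileup (horizontal axis), for peaks on chromosomes 1 to 22 and X. Boxes give the quartiles and the median, whiskers the 5th and 95th percentile, and orange marks the high-pileup sites. The medians climb from 286 bp in the lowest class to 782 bp at the sites.

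The widest site, chr17:56404826-56410880, spanned 6055 bp. It was followed by chr10:1616298-1620059 with 3762 bp, 233 reads and a fold of 10.8, and chr22:23921030-23923726 with 2697 bp, 202 reads and a fold of 10.7. All 3 had other summits within 10 kb, namely 3, 5 and 6. The narrowest was chr1:145000683-145000984 with 302 bp, the site over 47.0 control reads named above. Then came chr10:21373643-21374073 with 431 bp, 211 reads and a fold of 11.0, and chr3:123386569-123387023 with 455 bp, 189 reads and a fold of 7.59. The latter pair stood over 9.68 and 12.8 control reads, close to the median of all sites, and each contained its pile in less than 500 bp.

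Summits lay close to the middle of the peak. The distance from summit to peak centre, as a percentage of the distance from the centre to the border (the relative offset below), had a median of 14.6% at the sites (95% interval 12.9 to 16.7) and 20.1% at other peaks (19.8 to 20.5). In base pairs the order was the reverse, 55 bp at the sites against 38 bp, since the sites were wider. Between widths of 653 and 1044 bp, the quartiles of the sites, the 170 sites had a median relative offset of 12.8% (10.1 to 16.2) and the 2084 other peaks 28.3% (27.0 to 29.7), with median widths of 782.5 and 763 bp. Within this range of widths, summits of the sites were closer to the centre, a comparison chosen after seeing the data. The 75 to 100 class had a median of 14.6% as well, and the 50 to 75 class 15.3%, so this centring was not particular to pileups above 100. A relative offset over 50% was found at 15 of 337 sites (4.45%) and at 2608 of 20976 other peaks (12.4%).

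Neither side was preferred by much. The summit lay right of the centre, toward higher coordinates, at 154 of 337 sites (45.7%, Wilson interval 40.5 to 51.0). Other peaks gave 48.7% (48.0 to 49.4).

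Off-centre summits belonged to the wide sites. Among the 85 narrowest sites the median relative offset was 8.71%, or 25.5 bp. Among the 85 widest it was 33.9%, or 223 bp. Over the 337 sites, width and relative offset had a rho of 0.46, against 0.01 over all peaks. The largest relative offset, 73.6%, was at chr5:133268300-133270583, whose summit lay 840.5 bp left of the centre of a 2284 bp peak. chr22:20021043-20023463 had its summit 810 bp to the right (66.9%) and chr9:139651736-139653119 449.5 bp to the right (65.0%). The widest site had its summit 1496 bp left of its centre (49.4%). The peak table gives a single summit per peak, so a second maximum inside such a site would not be listed.

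**Figure D3:**
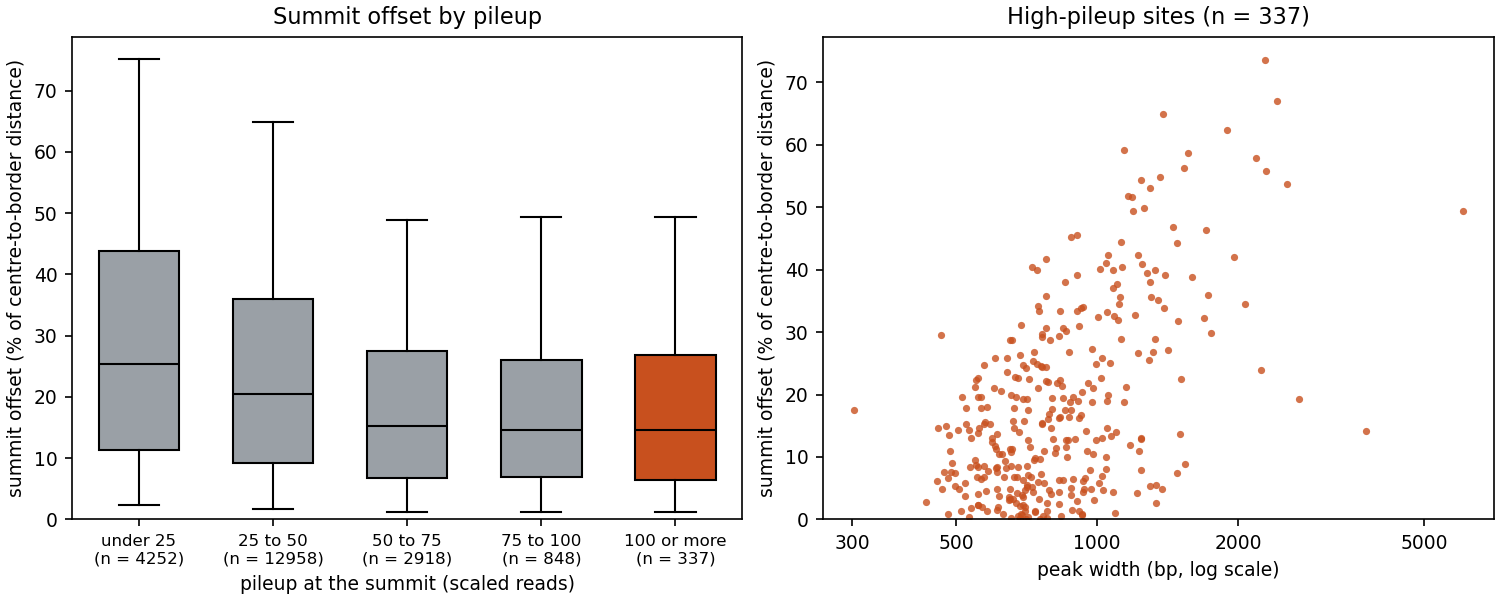
Left, distance from summit to peak centre, as a percentage of the distance from centre to border, by class of pileup, with boxes for quartiles and median, whiskers for the 5th and 95th percentile, and the high-pileup sites in orange. Right, the same offset (vertical axis) against peak width in bp (horizontal axis, log scale) for each of the 337 high-pileup sites. The class medians fall from 25.3% under a pileup of 25 to 14.6% at the sites, and offsets above 50% occur among the wide sites.

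Most high-pileup sites had a close neighbour. Another summit lay within 10 kb of 218 of the 337 sites (64.7%, Wilson interval 59.4 to 69.6), compared with 10843 of 20976 other peaks (51.7%, 51.0 to 52.4). At least 3 other summits lay that near to 70 sites (20.8%, 16.8 to 25.4) and to 2492 other peaks (11.9%, 11.4 to 12.3). The distance to the nearest summit had a median of 4.38 kb at the sites (3.57 to 6.06) and 9.14 kb at other peaks (8.82 to 9.50). The intervals treat peaks as independent, although neighbours share a locus. The classes just below gave like shares, 63.6% (60.3 to 66.7) for a pileup of 75 to 100 and 58.6% (56.8 to 60.3) for 50 to 75. Other peaks of at least 653 bp gave 64.8% (63.0 to 66.7), and the 253 sites of that width 70.8% (64.9 to 76.0). Between 653 and 1044 bp the sites gave 70.0% (62.7 to 76.4) and other peaks 62.3% (60.2 to 64.3). At like width the share was thus higher at the sites, with intervals that overlapped. The intervals of the classes just below also overlapped that of the sites, so the share was not shown to be particular to pileups of at least 100.

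At very short range the order turned. A second summit within 1 kb was found at 26 of 337 sites (7.72%, 5.32 to 11.1) and at 2810 of 20976 other peaks (13.4%, 12.9 to 13.9). Within 2 kb the shares were 24.9% and 24.6%. Within 5 kb they were 52.5% and 39.2%. The 75 to 100 class resembled the sites, with 8.14% (6.48 to 10.2) within 1 kb. Each peak has a single listed summit, so a wider peak leaves less room for another summit within 1 kb. Limited to widths of at least 653 bp, 7.11% of 253 sites had another summit within 1 kb (4.55 to 11.0). Of 2580 other peaks that wide, 11.5% had one (10.3 to 12.8). How far width sets this order was not tested.

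**Figure D4:**
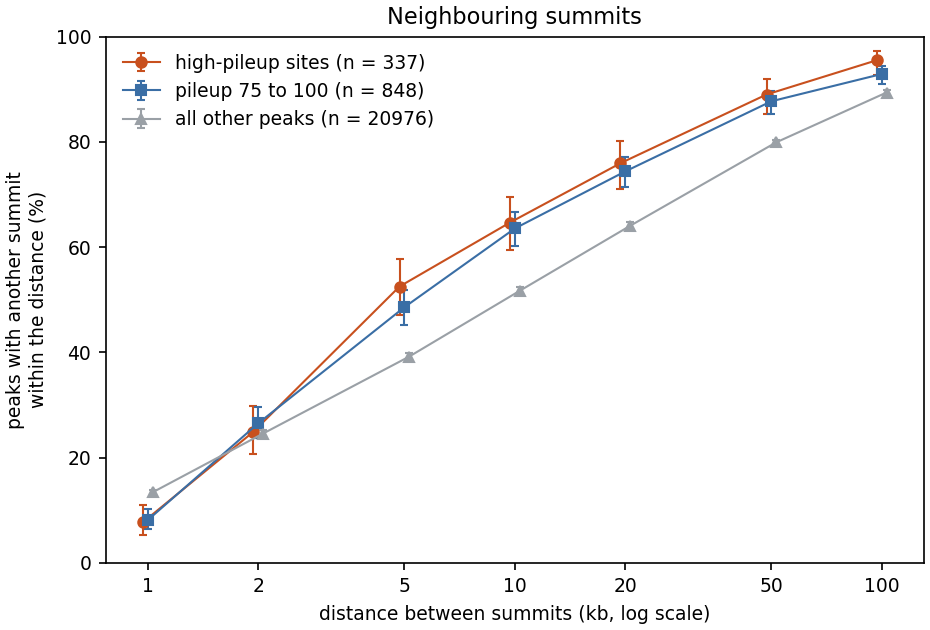
Share of peaks with at least 1 other summit within a given distance (vertical axis, %) against that distance in kb (horizontal axis, log scale). Orange circles are the high-pileup sites, blue squares peaks with pileup from 75 to 100 and grey triangles all other peaks, with Wilson 95% intervals as bars and points shifted slightly sideways. The sites lie below all other peaks at 1 kb and above them from 5 kb on, and overlap with the 75 to 100 class at every distance.

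Together the sites had 471 different peaks within 10 kb, of which 452 were below the threshold and 19 were high-pileup sites. The 452 had a median of 65 ChIP reads (quartiles 52 and 94.25) and a median width of 437 bp. All other peaks had a median of 61 reads (quartiles 48 and 80) and of 379 bp. A pileup of 75 to 100 was reached by 35 of the 452 neighbours (7.74%) and by 4.04% of all other peaks, so the neighbours were somewhat taller and wider than peaks in general. A site had a median of 2.30 times the reads of its highest neighbour (quartiles 1.62 and 3.25). The ratio ranged from 0.683 to 9.30. By the choice of sites most of these ratios had to exceed 1.

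The most crowded site was chr1:31227358-31228021, one of the 10 leading ones, with 7 other summits within 10 kb and the nearest at 0.854 kb. Another 8 sites had 6 neighbours. At the opposite extreme, 119 sites had none within 10 kb and 15 had none within 100 kb (4.45%, against 10.6% of other peaks). The most remote was chr7:111720523-111721569, with 210 reads and a fold of 12.95, whose nearest summit was 1037 kb away. chr6:68598689-68599560, the site of lowest control background, stood 903 kb from the next summit. chr12:78923954-78924536, with 184 reads and a fold of 8.52, stood 872 kb away. Tall piles thus occurred both in crowded stretches and alone.

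Another high-pileup site lay within 10 kb of 19 of the 337 sites (5.64%, Wilson interval 3.64 to 8.64). Such a site lay that near to 452 of 20976 other peaks (2.15%, 1.97 to 2.36) and to 4.13% (2.98 to 5.69) of the 75 to 100 class. The share was thus higher than over all other peaks, with an interval that overlapped that of the class just below. The 19 sites formed 9 runs on 7 chromosomes. The longest run held 3 sites over 13.8 kb of chromosome 19, where 6 peaks were called. Its members were chr19:2076439-2077186 with 206 reads and a fold of 12.7, chr19:2084946-2085778 with 194 and 15.4, and chr19:2089503-2090866 with 211 and 13.5. The other 8 runs were pairs. On chromosome 8 the tallest pile of all was paired with chr8:130184844-130185553, 4.69 kb away, with 246 reads over a background of 27.2 and a fold of 4.83. Both members of that pair stood over a control more than 10 times the genome mean.

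The remaining pairs showed no such control, apart from the chromosome 1 pair named above. On chromosome 5, chr5:133268300-133270583 (214 reads) and chr5:133270657-133271366 (209 reads) had summits 2.43 kb apart. A second pair there, chr5:172264222-172265557 (211 reads) and chr5:172272052-172272797 (199 reads), spanned 7.37 kb. On chromosome 6, chr6:30650141-30650910 (197 reads) and chr6:30655025-30655690 (223 reads) were 4.80 kb apart. On chromosome 14, chr14:104857791-104858573 (196 reads) and chr14:104860272-104861531 (238 reads) were 2.40 kb apart. On chromosome 19, chr19:13265858-13267308 (215 reads) and chr19:13274703-13275940 (204 reads) were 8.45 kb apart. On chromosome 21, chr21:45559563-45560588 (192 reads) and chr21:45563003-45564329 (185 reads) were 3.53 kb apart. Backgrounds in these 6 pairs were between 8.10 and 17.0 reads.

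All 23 chromosomes carried high-pileup sites, from 2 on chromosome X to 29 on chromosome 1. Per length of chromosome they were densest on chromosome 22, with 4.73 per 10 Mb (exact Poisson 95% interval 2.70 to 7.68), and on chromosome 19, with 4.59 (3.02 to 6.68). Chromosome 17 had 2.47 (1.51 to 3.82) and chromosome 21 2.36 (1.08 to 4.47), against 1.15 over all. The sparsest autosomes were chromosome 4 with 0.524 (0.251 to 0.964) and chromosome 15 with 0.612 (0.199 to 1.43). The length of a chromosome was counted between its outermost summits.

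Relative to its number of peaks, no chromosome stood out. The share of peaks that were high-pileup sites was highest on chromosome 21, 9 of 348 or 2.59% (Wilson interval 1.37 to 4.84), followed by chromosome 19, 27 of 1189 or 2.27% (1.57 to 3.28), and chromosome 22, 16 of 736 or 2.17% (1.34 to 3.50). It was lowest on chromosome X, 2 of 392 or 0.510% (0.140 to 1.84), and chromosome 15, 5 of 664 or 0.753% (0.322 to 1.75). The intervals of all 23 chromosomes held the overall 1.58%. With 2 to 29 sites per chromosome, differences in this share were not detectable beyond the counting error.

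**Figure D5:**
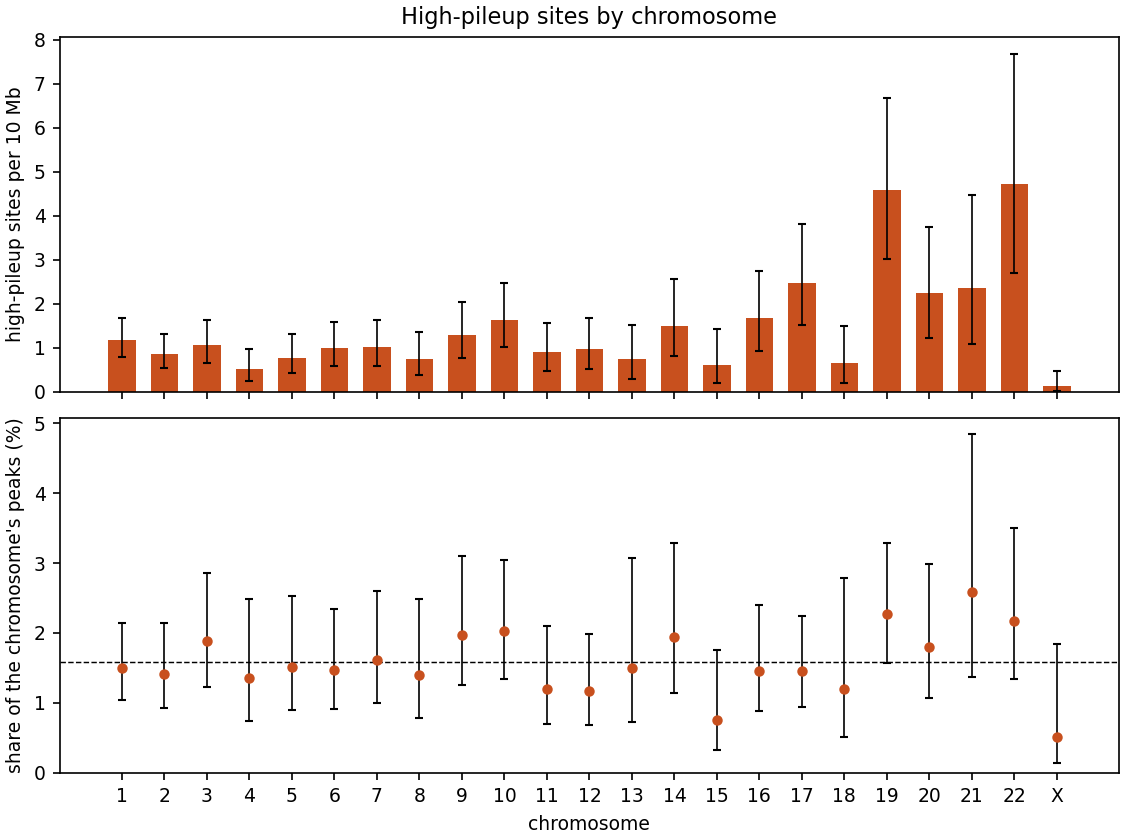
Top, high-pileup sites per 10 Mb of each chromosome (bars, from 0) with exact Poisson 95% intervals. Bottom, the percentage of each chromosome's peaks that are high-pileup sites (points) with Wilson 95% intervals, and the overall 1.58% as a dashed line. Densities differ between 0.129 on X and 4.73 on chromosome 22, while every interval in the lower panel crosses the dashed line.

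Chromosome X was low in both libraries. The median control background under its peaks was 4.50 reads, against 8.10 on the autosomes, and its median peak had 45 ChIP reads. Both of its high-pileup sites lay in the first 3 Mb, the end that holds the pseudoautosomal region shared with chromosome Y. They were chrX:2625132-2625936 with 211 reads over 10.0 and a fold of 10.6, and chrX:1739831-1740517 with 187 reads over 8.0. In that stretch the 59 peaks had a median background of 9.0 reads, near the autosomal value. In the rest of the chromosome the 333 peaks had a median background of 4.05 and none exceeded 166 reads. The share on X cannot be told apart from its lower coverage in both libraries.

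Within chromosomes the gaps between sites varied widely. The median gap between successive sites was 2.90 Mb (quartiles 0.655 and 9.32, largest 66.4, n = 314 gaps). Of the 276 bins of 1 Mb that held a site, 226 held 1, 50 held at least 2 and 8 held at least 3. No bin held more than 4. The bins with 4 were on chromosome 10 from 98000000 to 98999999, with 32 peaks in all, on chromosome 19 from 13000000 to 13999999, with 37, and on chromosome 19 from 2000000 to 2999999, with 85. Sites thus took 12.5% of the peaks in the first of these bins and 4.71% in the last, against 1.58% of all peaks. These bins were picked for their number of sites. No like count was made for other peaks, so whether the sites cluster at this scale was not tested.

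The list stood almost entire in the second deposited file, a cleaned list of positions. Of the 337 sites 336 were listed there with the same borders. The share of other peaks kept there is not given here, so this count does not set the sites apart. The exception was chr21:18800191-18801344, with 237 reads over 6.07 and a fold of 18.6. It was not listed there with the same borders, and no listed position covered its summit.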

How the data were processed

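The submitters' processing notes name BWA as a tool and hg19 as the genome build of the ChIP and input reads. Peaks were called by the authors with MACS2 version 2.1.1.20160309 on pooled ChIP tags, with 50 bp reads extended to 225 bp, an effective genome size of 2700 Mb, 1 tag per position and a q-value limit of 0.05, per the file headers. The number of pooled libraries and the cleaning of the second list were not given in the sources used here. A pool hides the spread between libraries. The caller kept 46190179 of 46190180 ChIP tags and 25416853 of 25416858 control tags. The limit on tags per position, with a fixed extension, caps the reads that can lie over a summit. Read counts, their ranks and their ratios to neighbours may therefore be compressed at tall piles, which was not tested.

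The deposited pileup is a signal, the coverage at the summit scaled to the control. The deposited fold is the ratio of pileup to local control, each plus 1. The deposited −log10 p and q come from the caller. From these, ChIP reads were recovered as pileup over scale (whole within 0.005 for 100% of peaks), and the control background as pileup plus 1 over fold, minus 1. Poisson p-values recomputed from it were within 0.005 log10 units of the deposited ones for 100% of peaks. The steps were tested on simulated data (100% of 21361 peaks recovered).

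Intervals are 95%: exact Poisson for counts, Wilson for shares, and order statistics for medians. The Poisson intervals of reads over a summit take no account of the upper limit set by the tags kept per position, so they are approximate. No test was made, since 1 sample per group allows none. The members, the comparisons and the rule for named sites (the 20 highest by pileup, the extremes of width, fold, background, offset and neighbours, runs, and 3 on each side of the threshold) were chosen with earlier results of these data known. The pileup classes, the 1 Mb bins, the remote sites and the first 3 Mb of X were added after their values were seen. Planned start-site and motif shares, which need the hg19 annotation and sequence, were not run. Scripts ran in Python 3.11.15 with pandas 2.3.3, numpy 2.4.6 and scipy 1.17.1, and figures were drawn in matplotlib 3.10.9.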

Additional observations from a re-analysis of the deposited data

Results flagged for a closer look

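Tall piles were also present outside chromosomes 1 to 22 and X, in rows of the peak table that no comparison above uses. On the unplaced contig GL000220.1, 12 of 20 peaks had a pileup of at least 100, with 190 to 350 ChIP reads over a control background of 48.0 to 82.1 reads. Their folds ranged from 1.51 to 3.95, with a median of 1.70, so the input was high at the same places. None of the 23 peaks on chromosome Y reached that pileup.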

How the results depend on the processing

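Of 31 alternatives, 17 left the value within its counting interval (for a number of sites, within 1.5 times) and 14 moved it. With a pileup threshold of 90, 120 or 150 in place of 100, the number of sites was 565, 121 or 15, by construction. The width ratio of 2.06 was 1.99 at a threshold of 90, 2.38 at 150, where 15 sites remained, and 1.20 against peaks with pileup from 75 to 100. The median relative offset of the sites minus that of other peaks, -5.53 percentage points, became -15.97 against other peaks of at least 653 bp, -12.67 with that limit on both groups and -15.52 with both between 653 and 1044 bp, the last pair chosen after seeing the data. The share of sites with a neighbour was 52.5% within 5 kb, 76.0% within 20 kb and 89.0% within 50 kb, and that with another high-pileup site 3.56% within 5 kb and 13.4% within 50 kb, where a longer distance can only add neighbours. At 50 kb 79.9% of other peaks had a neighbour, and a high-pileup site lay within 5 kb of 1.28% and within 50 kb of 6.27% of them. Leaving out the 46 sites with a background of 15 reads or more, an alternative chosen after seeing the data, gave a width ratio of 2.09 and a neighbour share of 63.2%. The highest over lowest chromosome share could not be computed at thresholds of 120 and 150, since 2 and 12 chromosomes then held no site. The alternatives planned for start sites and motifs were not run. Depth leaves the membership of 184 sites, and the order of neighbouring ranks, unresolved.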

Other observations

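High-pileup sites near chromosome ends were about as common as other tall or wide peaks there. Their summit lay within 5 Mb of an end in 78 of 337 cases (23.1%, Wilson interval 19.0 to 27.9). The share was 19.1% of all other peaks and 22.3% of peaks with pileup from 75 to 100. At widths of at least 653 bp it was 26.5% of 253 sites (21.4 to 32.2) and 23.1% of other peaks (21.5 to 24.8). Ends were taken as the first base, except on chromosomes 13, 14, 15, 21 and 22, and the border of the last listed peak.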
